A study of Mus musculus with 9 samples.

Results

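The genes described here form the endothelial share of blood clotting and clot removal: Vwf, F8 and F3, which promote clotting, Thbd, Procr, Tfpi and Pros1, which restrain it, and Plat and Plaur, which act in the breakdown of fibrin. They form a list of 9 gene symbols looked up in the deposited expression table, where all 9 were found once among 52183 genes. The rule that lists them uses known function and no measured value, but the genes were chosen with earlier results of these data known. Of the 9 genes, 8 had a mean of at least 1 FPKM (fragments per kilobase of gene model, scaled to library depth) and were tested among 11796 such genes; F3 lay below that level.

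Clotting begins when tissue factor, the product of F3, meets circulating factor VII, and vessel walls normally keep it out of reach of the blood. Endothelial cells hold the reaction in check with tissue factor pathway inhibitor (Tfpi), with thrombomodulin (Thbd), which turns thrombin from a clotting enzyme into an activator of protein C, with the endothelial protein C receptor (Procr), and with protein S (Pros1), a cofactor of activated protein C and of the inhibitor encoded by Tfpi. They also supply von Willebrand factor (Vwf), the carrier of factor VIII in plasma, and factor VIII itself (F8), and they release tissue-type plasminogen activator (Plat), while the urokinase receptor (Plaur) concentrates plasminogen activation at the cell surface.

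RNA came from endothelial cells of the long bones of mice, sorted after an antibody to VE-cadherin had been injected into the living animals. There were 3 libraries from controls aged 3 months (young controls), 3 from controls aged 18 months (aged controls) and 3 from mice aged 18 months labelled as knockouts of Thbs1 (the labelled knockouts), the gene of thrombospondin-1. Strain, altered part of Thbs1, promoter and Cre are not stated, and the labels do not say whether a library is 1 animal or a pool, so a p-value reflects only how far the libraries spread, which may be technical. The depth recovered from the values was 22080000 to 30305000 fragments per library, and was highest in the labelled knockouts.

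The targeted gene went against its label. Thbs1 (ENSMUSG00000040152) stood at 4.55, 3.89 and 4.18 FPKM among young controls, at 0.67, 0.82 and 1.17 FPKM among aged controls and reached 25.63, 19.45 and 19.84 FPKM in the labelled knockouts. The group name below is therefore the label only. Tfpi, Thbd and Procr lie on chromosome 2 as Thbs1 does, at 33.6, 30.3 and 37.6 Mb from it, and the other members lie on other chromosomes. The 14 pan-endothelial markers were all above 1 FPKM in each group, and their summed level was 2893 to 3029 FPKM among young controls, 3109 to 3352 FPKM among aged controls and 2840 to 3010 FPKM in the labelled knockouts. The higher aged sum came with Cldn5, a tight junction gene at 484 ± 20.0, 810.3 ± 49.6 and 476 ± 81.3 FPKM, which was called in both comparisons with the aged controls (adjusted p = 0.0232 and 0.00897). Kdr went the other way with age (337 ± 3.63 to 260.2 ± 23.3 FPKM, not called), and the list's median log2 fold change was -0.10.

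The 9 genes covered a wide range of levels, and 3 of the 4 restraining genes, Tfpi, Thbd and Pros1, were the most abundant. Averaged over the 9 libraries, Tfpi stood at 957 FPKM, the 31st highest mean of the tested genes, and Thbd at 623 FPKM, the 54th highest. Pros1 followed at 197 FPKM, Plaur at 59.7 FPKM, Procr at 23.6 FPKM, F8 at 17.3 FPKM, Plat at 4.19 FPKM, Vwf at 1.13 FPKM and F3 at 0.262 FPKM. In that order the ranges over libraries of Tfpi and Thbd overlapped, as did those of Procr and F8, of F8 and Plat, of Plat and Vwf and of Vwf and F3. The ranges of Thbd and Pros1, of Pros1 and Plaur and of Plaur and Procr did not. FPKM divides by the length of the gene model, and Vwf has 16064 exon bases once all its transcripts are merged.

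**Figure D1:**
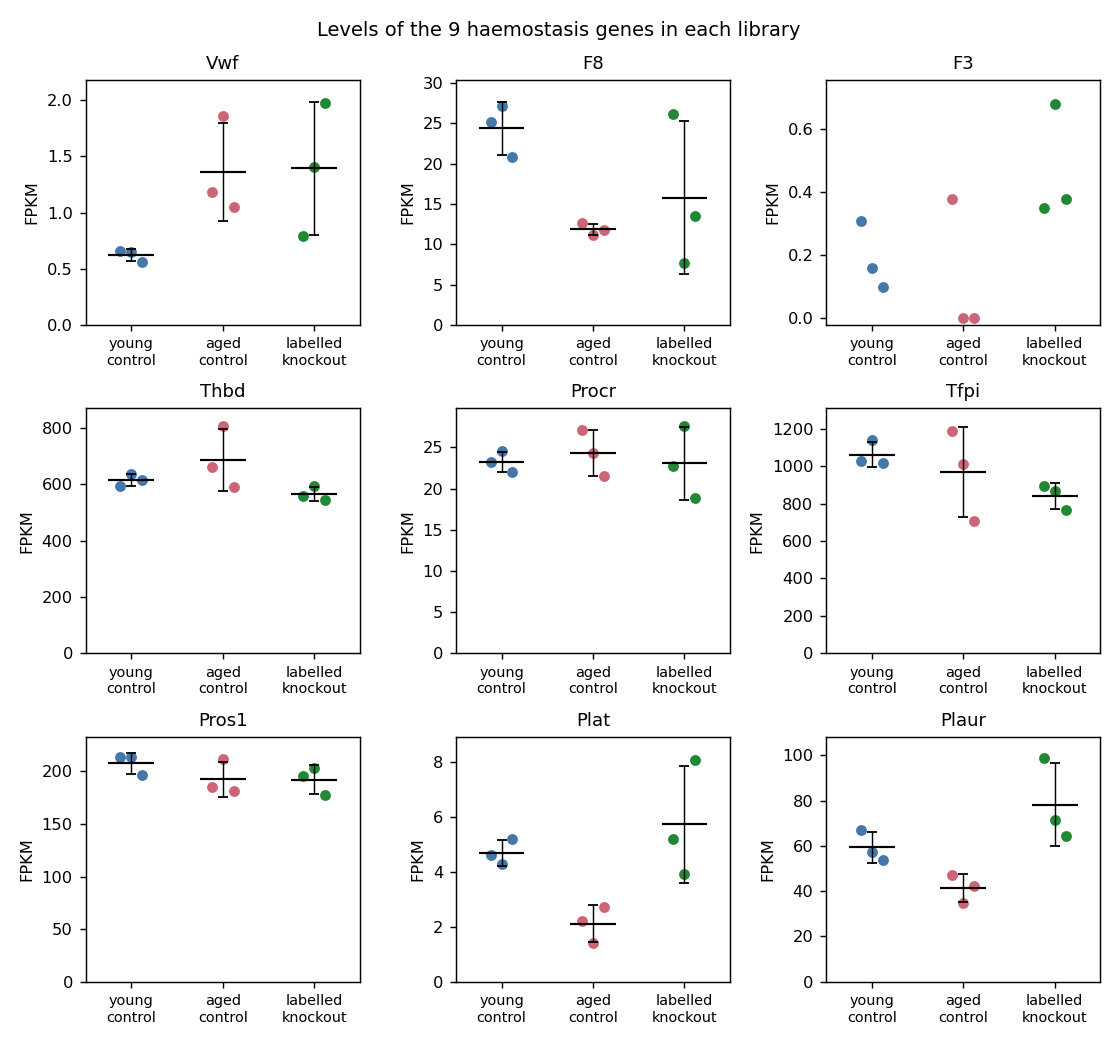
Level of each of the 9 genes in FPKM (vertical axes, which differ between panels) in the 3 groups. Points are libraries, horizontal lines the group mean and bars 1 SD, left out for F3, which is listed at 0 in some libraries. Plat and Plaur are lowest in the 3 aged controls. From lowest to highest library Thbd, Procr, Tfpi and Pros1 vary 1.48-, 1.46-, 1.67- and 1.2-fold.

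With age, none of the 8 tested members passed the test (limma, adjusted p under 0.05 over all 11796 genes), against 3.99% of all tested genes. In the same comparison limma voom on recovered fragments called 1 member, Plat, and 595 of all 11796 genes. At an unadjusted p under 0.05 in the main fit there were 4 members (Vwf, F8, Plat and Plaur), against 27.7% of all genes. The same 4 had young and aged libraries that did not overlap, against 35.7% of all genes. Their median log2 fold change was -0.14 over the 8 members and -0.05 over all tested genes. In the labelled knockouts against the aged controls 2 members rose and none fell, Plat and Plaur, both of the fibrinolytic side. Over all genes 4.79% were called in that comparison, 2.78% as higher. The members' median log2 fold change was 0.001, beside 0.002 for all tested genes. Both comparisons share the aged controls, so a low value there enters each of them.

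**Figure D2:**
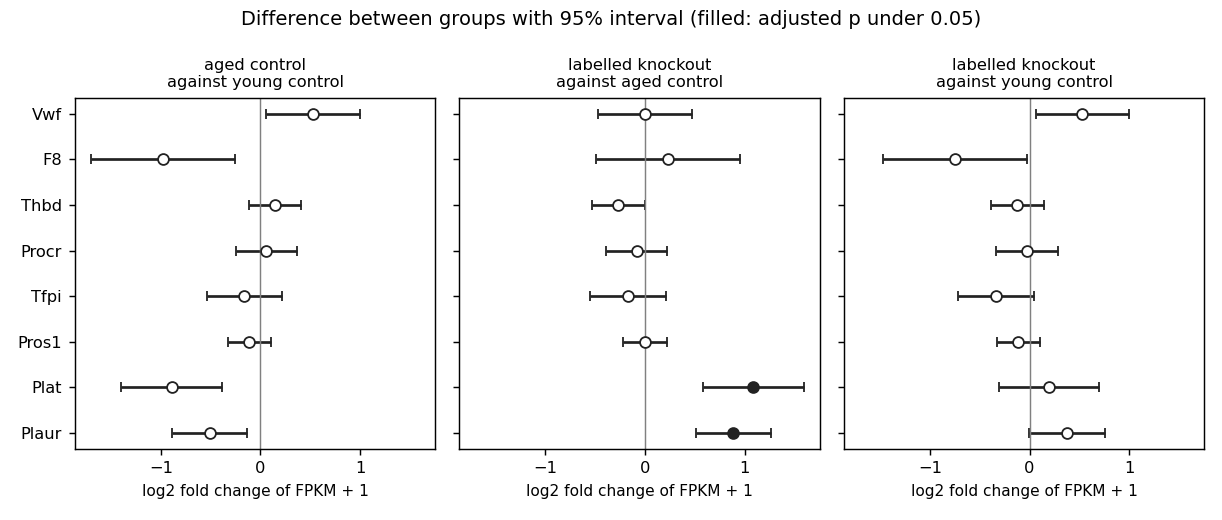
Difference between groups for the 8 tested genes as log2 fold change of FPKM + 1 (horizontal axis), with its 95% interval from limma, in 3 comparisons. Filled points have an adjusted p under 0.05; Plat (1.09) and Plaur (0.89) in the labelled knockouts against the aged controls are the only ones.

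Vwf encodes the large adhesive protein that endothelial cells store in Weibel-Palade bodies, where it can bind platelets once released. The gene (ENSMUSG00000001930, GRCm38 chromosome 6, 125546774 to 125686679, plus strand) stood at 0.66, 0.65 and 0.56 FPKM among young controls, at 1.18, 1.86 and 1.05 FPKM among aged controls and reached 0.79, 1.41 and 1.98 FPKM in the labelled knockouts. All 6 libraries of aged mice were above the 3 young ones. These levels are low for a gene often used as an endothelial marker, and they rest on 214 to 870 fragments per library. The aged control mean of 1.36 ± 0.435 FPKM (SD, n = 3) was 2.19 times the young mean of 0.623 ± 0.0551 FPKM, with a log2 fold change of 0.53 ± 0.21 (SE) that did not pass the test (limma adjusted p = 0.144). The labelled knockout mean was 1.39 ± 0.595 FPKM, and its difference from the aged controls had a 95% interval of 0.723- to 1.39-fold on the scale of FPKM + 1.

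Megakaryocytes also make Vwf, and the most abundant of their listed markers stood above Vwf in every library. Of the 12 markers on that list, 3 or 4 reached 1 FPKM as a group mean, and their summed level was 26.8 to 31.6 FPKM among young controls, 25.4 to 35.7 FPKM among aged controls and 22.3 to 39.4 FPKM in the labelled knockouts. Pf4 (14.6 to 26.16 FPKM over libraries) and Ppbp (4.12 to 8.28 FPKM) led it, while the platelet receptor subunit Gp1ba was at 0.11 to 0.34 FPKM and the collagen receptor Gp6 was listed at 0 in 3 libraries. Their part in the values of Vwf was not tested. The 9 arterial markers had summed levels of 363.6 to 436.1 FPKM among young controls and 634.8 to 723.0 FPKM among aged controls, most of it Ly6a. Ly6a stood at 329 ± 36.3 FPKM among young controls and 586 ± 61.5 FPKM among aged controls, while Dll4, the next most abundant, stood at 47.8 ± 0.649 and 44.3 ± 8.37 FPKM and Efnb2 at 9.56 ± 1.31 and 6.97 ± 2.23 FPKM. In the labelled knockouts the whole list summed to 350.6, 649.0 and 469.8 FPKM, of which Ly6a made up 255.35, 554.53 and 355.18 FPKM. The part of arterial cells in the values of Vwf was not tested. None of the 8 tested arterial markers was called in any comparison. In sorted bulk RNA, fewer cells of a type and less RNA per cell cannot be told apart.

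F8 encodes factor VIII, the cofactor that speeds the activation of factor X and is carried by von Willebrand factor. F8 (ENSMUSG00000031196, chromosome X, 75172715 to 75382615, minus strand) stood at 25.17, 27.17 and 20.82 FPKM among young controls and at 12.59, 11.20 and 11.75 FPKM among aged controls. Every young library was above every aged control, and the means were 24.4 ± 3.25 and 11.8 ± 0.70 FPKM. The aged level was 0.486 times the young one, with a log2 fold change of -0.98 ± 0.32 (SE) that missed the threshold (adjusted p = 0.0979). The labelled knockouts were scattered, at 26.17, 7.61 and 13.53 FPKM, from above the middle young library to below all aged controls. The shared estimate of the spread includes these 3 libraries. Without replicate 1 or replicate 2 of the labelled knockouts the age difference in F8 was called (adjusted p = 0.0324 and 0.0301), as it was in a fit of the young and aged controls alone (adjusted p = 0.0113). These were 2 of the 9 fits that each omitted 1 library. Omitting any other library left it uncalled (limma adjusted p = 0.133 to 0.255).

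F8 has 9905 exon bases, and long genes differed between these libraries. Among 1802 tested genes of at least 8000 exon bases, the median departure from the mean over the 9 libraries was 0.07 to 0.11 log2 units in the young controls and -0.16 to -0.05 among aged controls. It was 0.09 and 0.06 in replicates 1 and 3 of the labelled knockouts and -0.08 in replicate 2. F8 stood at 26.17, 7.61 and 13.53 FPKM in replicates 1, 2 and 3 of the labelled knockouts. Vwf, the longest member, had a higher mean among aged than among young controls. Each library's trend with exon length was then removed, an alternative added after the data were seen. The age difference in F8 was then -0.78 (limma adjusted p = 0.164), beside -0.98 in the main fit. That in Vwf was then 0.77 (limma adjusted p = 0.0857), beside 0.53 in the main fit. The part of exon length in the values of F8 and Vwf was not tested. Within each library the ratio of Vwf to F8 was 0.0262, 0.0239 and 0.0269 among young controls, 0.0937, 0.166 and 0.0894 among aged controls and 0.0302, 0.185 and 0.146 in the labelled knockouts. All 6 libraries of aged mice exceeded the young ones, and the aged to young difference was 2.12 log2 units (two-sided exact permutation p = 0.1, the smallest that 3 against 3 libraries allow; adjusted p = 0.24 over 12 ratio tests, of which 9 are reported here). With a pseudocount of 1 in the ratio, labelled knockout replicate 1 fell within the young range (exact permutation p = 0.2 for labelled knockouts against young), and the aged controls stayed above it.

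F3 encodes tissue factor. F3 (ENSMUSG00000028128, chromosome 3, 121723537 to 121735048, plus strand) was low, at 0.31, 0.16 and 0.10 FPKM among young controls, 0.38, 0 and 0 FPKM among aged controls and 0.35, 0.68 and 0.38 FPKM in the labelled knockouts. These values correspond to 6 to 18, 0 to 21 and 25 to 52 recovered fragments. In aged control replicates 2 and 3 a count of 0 allows up to 0.0515 and 0.0485 FPKM (3 fragments, counting error only). The aged controls overlapped both other groups, while all labelled knockouts lay above all young controls. The gene was below the level set for testing, so this difference was not tested and no fold change is given. The ratio of F3 to Tfpi was not taken for the same reason.

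None of the 4 genes that restrain clotting passed the test in any comparison. Tfpi (ENSMUSG00000027082, chromosome 2, 84432855 to 84476775, minus strand), whose product blocks the complex of tissue factor and factor VIIa, stood at 1028.80, 1138.00 and 1016.63 FPKM among young controls, 1186.85, 1011.94 and 708.67 FPKM among aged controls and 893.61, 867.07 and 763.98 FPKM in the labelled knockouts. The 3 labelled knockouts were below the 3 young controls, while the aged controls overlapped both. The labelled knockout mean of 842 ± 68.5 FPKM was 0.793 times the young mean of 1061 ± 66.8 FPKM (log2 fold change -0.34 ± 0.17 SE, adjusted p = 0.585). Its 95% interval ran from 0.609- to 1.03-fold. The aged to young interval for Tfpi was 0.687- to 1.16-fold.

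Thbd (ENSMUSG00000074743, chromosome 2, 148404466 to 148408188, minus strand), the thrombin receptor that starts protein C activation, stood at 594.61, 637.86 and 615.01 FPKM among young controls, 661.11, 807.19 and 591.28 FPKM among aged controls and 558.82, 592.99 and 545.32 FPKM in the labelled knockouts. Aged control replicate 2 was the highest, all labelled knockouts lay below all young controls, and they overlapped the aged controls only through replicate 3 of those. The labelled knockout mean was 0.824 times the aged control mean (log2 fold change -0.27 ± 0.12 SE, adjusted p = 0.2). The 95% interval of that difference was 0.693- to 0.996-fold. Against the young controls it was 0.766- to 1.10-fold, and the aged to young interval was 0.922- to 1.33-fold.

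Procr (ENSMUSG00000027611, chromosome 2, 155751117 to 155755471, plus strand) presents protein C to the thrombin-thrombomodulin complex. Its values were 23.19, 24.53 and 22.00 FPKM among young controls, 27.18, 24.30 and 21.55 FPKM among aged controls and 22.72, 27.64 and 18.87 FPKM in the labelled knockouts, and each pair of groups overlapped. Its intervals were 0.841- to 1.29-fold with age and 0.762- to 1.17-fold for the labelled knockouts against the aged controls. The 2 receptors of the protein C pathway were also compared within each library. The ratio of Thbd to Procr was 25.6, 26 and 28 among young controls, 24.3, 33.2 and 27.4 among aged controls and 24.6, 21.5 and 28.9 in the labelled knockouts, with all groups overlapping (exact permutation p = 0.7 for aged against young).

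Pros1 (ENSMUSG00000022912, chromosome 16, 62854307 to 62929346, plus strand) varied least of the tested members, 1.2-fold from its lowest to its highest library. Its values were 213.56, 213.36 and 196.14 FPKM among young controls, 184.80, 211.81 and 181.06 FPKM among aged controls and 195.84, 203.63 and 177.24 FPKM in the labelled knockouts. The intervals were 0.797- to 1.08-fold with age, 0.860- to 1.16-fold for the labelled knockouts against the aged controls and 0.796- to 1.08-fold against the young controls. For these 4 restraining genes the lowest adjusted p over the 3 comparisons was 0.2, that of Thbd in the labelled knockouts against the aged controls (unadjusted p = 0.0464 by limma). With libraries weighted by their quality in limma, Thbd was called in that comparison (log2 fold change -0.46, adjusted p = 0.0132). Thbd was also called with age (0.30, adjusted p = 0.044), and Tfpi in the labelled knockouts against the young controls (-0.42, adjusted p = 0.0408). These weights raised the calls over all genes as well. With age 2320 genes were called, beside 471 in the main fit. In the labelled knockouts 1854 were called against the aged controls, beside 565, and 621 against the young controls, beside 25. The intervals give the differences that these libraries still allow.

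Plat encodes tissue-type plasminogen activator, the protease that endothelial cells release to turn plasminogen into plasmin on fibrin. Plat (ENSMUSG00000031538, chromosome 8, 22757727 to 22782844, plus strand) stood at 4.63, 4.28 and 5.22 FPKM among young controls, at 2.23, 1.41 and 2.72 FPKM among aged controls and reached 5.19, 3.92 and 8.10 FPKM in the labelled knockouts. The aged controls lay below all other libraries, and the labelled knockouts overlapped the young controls. Plat rose from 2.12 ± 0.662 FPKM among aged controls to 5.74 ± 2.14 FPKM in the labelled knockouts (SD, n = 3), 2.71 times, with a log2 fold change of 1.09 ± 0.23 (SE, limma adjusted p = 0.0275). The aged mean was 0.45 times the young mean of 4.71 ± 0.475 FPKM (log2 fold change -0.89 ± 0.23 SE, adjusted p = 0.0575), just outside the threshold. Each value rests on 203 to 1382 fragments. The rise in the labelled knockouts passed the test in 2 of 9 fits that each omitted 1 library, those without aged control replicate 3 and without labelled knockout replicate 2. In the other fits the adjusted p was 0.0511 to 0.0901.

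Plaur encodes the receptor that holds urokinase at the cell surface. Plaur (ENSMUSG00000046223, chromosome 7, 24462484 to 24475968, plus strand) stood at 66.88, 57.44 and 53.71 FPKM among young controls, at 47.10, 34.96 and 42.32 FPKM among aged controls and reached 98.93, 71.46 and 64.21 FPKM in the labelled knockouts. The aged controls were again the lowest 3 libraries, and the labelled knockouts overlapped the young controls only through replicate 3. Plaur rose from 41.5 ± 6.12 FPKM among aged controls to 78.2 ± 18.3 FPKM in the labelled knockouts (SD, n = 3), 1.89 times, with a log2 fold change of 0.89 ± 0.17 (SE, limma adjusted p = 0.0206). The aged to young difference was -0.51 ± 0.17 (SE, adjusted p = 0.0978). The rise was called in 7 of the 9 fits that omitted 1 library. It was lost without labelled knockout replicate 1, the highest library (adjusted p = 0.0571), and without aged control replicate 2, the lowest (adjusted p = 0.0512). For both Plat and Plaur the fit of the aged controls and labelled knockouts alone did not pass (adjusted p = 0.0989 and 0.0751).

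Monocytes and neutrophils also carry Plaur. The summed level of the 11 monocyte and macrophage markers was 63.0 to 109.6 FPKM among young controls, 79.4 to 93.2 FPKM among aged controls and 63.0 to 77.0 FPKM in the labelled knockouts, so every labelled knockout was below every aged control, while the young controls overlapped both. Cd14 (28.91 to 42.99 FPKM) and Lyz2 (8.79 to 47.5 FPKM) led the list, and Adgre1 and Cx3cr1 were at most 0.93 and 0.59 FPKM. The 11 neutrophil markers summed to 7.1 to 140.3, 13.3 to 288.5 and 33.8 to 116.4 FPKM in the 3 groups, with groups overlapping and S100a8 and S100a9 leading. The part of these cells in the values of Plaur was not tested. Urokinase itself, the ligand encoded by Plau, stood at 5.01 ± 1.13, 4.79 ± 1.84 and 5.10 ± 1.49 FPKM and was called in no comparison (adjusted p = 0.852 to 0.995). The ratio of Plau to Plaur was 0.0488 to 0.0838 in the labelled knockouts and 0.0584 to 0.152 among aged controls, which overlapped.

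**Figure D3:**
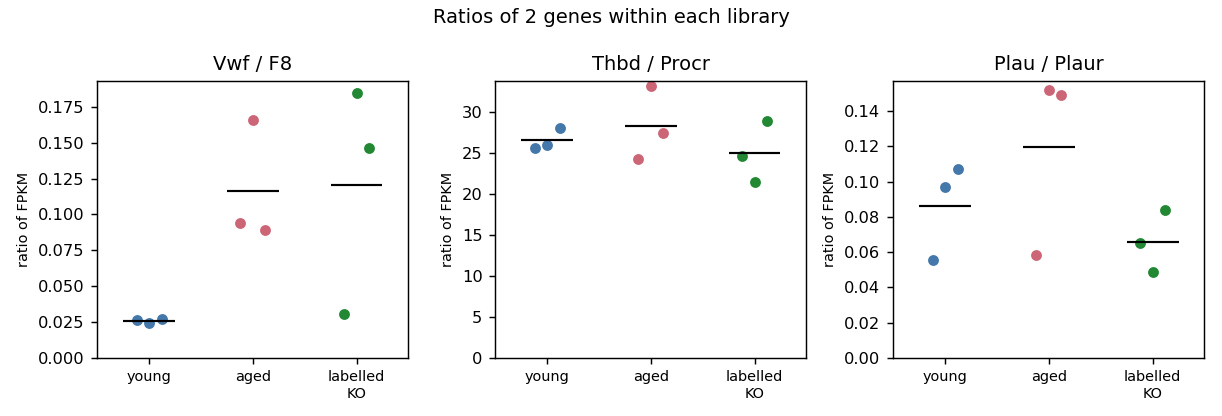
Ratio of the FPKM values of 2 genes within each library (vertical axes, which differ between panels and start at 0), by group; points are libraries and lines the mean of the 3 ratios. Vwf over F8 is 0.0239 to 0.0269 among young controls and at least 0.0302 in the other 6 libraries, while the groups overlap for Thbd over Procr and for Plau over Plaur.

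Other marker lists varied beside these results, and their part in the values of Plat and Plaur was not tested. Of 13 stromal, osteoblast and fat markers, led by Cxcl12 and Ibsp, 7 were tested and 5 fell with age, with a summed level of 101.8 to 145.3 FPKM among young controls, 53.0 to 60.8 FPKM among aged controls and 46.8 to 65.3 FPKM in the labelled knockouts. The 5 were Cxcl12, Adipoq, Ibsp, Lpl and Kitl, and Adipoq was also lower in the labelled knockouts than in the aged controls (3.76 ± 0.682 against 5.97 ± 0.655 FPKM, adjusted p = 0.0389, called in 1 of the 9 fits without 1 library). B lineage and plasma cell markers, led by Igkc and Ighm, ranged from 6.4 to 517.5, from 478.2 to 3018.2 and from 4.6 to 1787.4 FPKM in the 3 groups, and Pax5 was below 0.1 FPKM in every library. The 9 sinusoidal markers summed to 1415.8 to 1492.9, 1580.5 to 1895.8 and 1326.2 to 1496.2 FPKM. Their most abundant genes, Il6st and Stab2, had lower means among aged than among young controls without passing the test, while Fcgr2b stood at 117 ± 14.6, 304 ± 65.2 and 90.2 ± 78.6 FPKM in the 3 groups. Fcgr2b and Dnase1l3 fell in the labelled knockouts against the aged controls (adjusted p = 0.0352 and 0.0415, each called in 1 of the 9 fits without 1 library). Of 10 listed erythroid markers 6 were tested, and Epor fell in the same comparison (adjusted p = 0.0424, in 2 of those fits).

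The promoter of Plaur is shown with those of F3 and Procr because they are the searched members whose window before the start holds an AP-1 motif. Entries were found for 6 of the 9 members in RefSeq's promoter table on GRCm38.p6. Vwf, Thbd and Plat had no entry and were not searched. The window of F8 and 1 of Tfpi lay inside the gene as GENCODE draws it. The 250 bases before each start were searched on both strands for TGANTCA (AP-1), GGANTTTCC (NF-kB), GCGGGGGCG (EGR) and CACCC (Kruppel-like factors), which are held by 6.75%, 1.07%, 2.57% and 52.0% of 32851 such windows. Capitals mark AP-1, NF-kB and EGR matches, and the sequences read 5′ to 3′ on the gene's own strand, which is plus for all of them. The stretch of Procr is shortened to end before its GENCODE start. Its RefSeq start, from which positions are counted, lies downstream of the printed end.
Plaur, chr7:24462233-24462482: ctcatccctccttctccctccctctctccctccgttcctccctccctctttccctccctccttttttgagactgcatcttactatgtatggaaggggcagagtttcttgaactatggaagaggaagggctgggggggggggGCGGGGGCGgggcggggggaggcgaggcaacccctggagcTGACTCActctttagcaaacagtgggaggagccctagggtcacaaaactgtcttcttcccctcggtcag
F3, chr3:121723287-121723536: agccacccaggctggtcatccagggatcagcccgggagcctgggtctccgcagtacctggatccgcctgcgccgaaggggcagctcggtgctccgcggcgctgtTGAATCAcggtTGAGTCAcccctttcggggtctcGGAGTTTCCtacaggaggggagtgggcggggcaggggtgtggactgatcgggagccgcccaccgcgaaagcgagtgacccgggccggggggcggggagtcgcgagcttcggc
Procr, chr2:155750967-155751116: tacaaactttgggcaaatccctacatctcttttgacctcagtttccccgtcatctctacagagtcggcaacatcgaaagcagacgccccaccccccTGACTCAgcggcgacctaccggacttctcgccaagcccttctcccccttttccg

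The Plaur window held 1 AP-1 match, starting 69 bases before the RefSeq start, and 1 EGR match at 109 bases. The F3 window held AP-1 matches at 146 and 135 bases and an NF-kB match at 112 bases. The Procr window held 1 AP-1 match, at 154 bases before its RefSeq start. Of these, Plaur rose in the labelled knockouts against the aged controls and Procr was not called. F3 was below the level set for testing, with all labelled knockouts above all young controls and the aged controls overlapping both. A match describes letters and not a site in use. Of 14 transcription factors known from other work to act on these genes, Egr1 rose from 819 ± 57.2 to 1330 ± 66.0 FPKM in the labelled knockouts against the aged controls (adjusted p = 0.00691) and Fosl1, an AP-1 subunit, from 3.83 ± 0.392 to 7.67 ± 1.64 FPKM (adjusted p = 0.0317), with no factor lower. The Fosl1 call held in 3 of the 9 fits without 1 library, that of Egr1 in all of them. Fos and Jun had the highest means over the 9 libraries, 3194 and 1105 FPKM, and were not called. With age the endothelial factors Erg (14.4 ± 0.801 to 9.28 ± 1.95 FPKM, adjusted p = 0.0447) and Hhex (71.7 ± 7.37 to 51.7 ± 4.71 FPKM, adjusted p = 0.0436) fell, each in 3 of those 9 fits, and none rose. The Kruppel-like factors Klf2 and Klf4, which can raise Thbd, passed in no comparison. Klf2 stood at 381 ± 18.5, 446 ± 29.8 and 533 ± 43.2 FPKM in the 3 groups, and its part in the values of Thbd was not tested.

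Other genes of haemostasis were examined as lists beside the members. Among 21 clotting factors and genes that process them, 8 were tested and none was called in any comparison. The liver-type factors F9, F11, F12, F13b, Fga, Fgb, Fgg and Klkb1 were below 0.1 FPKM in every library, and F5, partner of factor X, was at 0.20 to 0.38 FPKM. The most abundant were Pdia4, a protein disulfide isomerase (81.0 ± 9.18, 116 ± 15.0 and 90.3 ± 14.2 FPKM), and Mcfd2, which helps export factors V and VIII (59.3 ± 1.39, 76.1 ± 7.45 and 69.0 ± 5.92 FPKM). Both had aged controls above all young controls, without passing the test (adjusted p = 0.0678 and 0.0709). The list's median log2 fold change was 0.03 with age and -0.21 for the labelled knockouts against the aged controls, beside -0.05 and 0.002 for all genes.

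Among 16 anticoagulant and antiplatelet genes, 7 were tested, and 2 fell with age. Tfpi2, a matrix-bound relative of Tfpi that inhibits plasmin, went from 73.68, 72.81 and 52.20 FPKM among young controls to 34.20, 39.39 and 26.03 FPKM among aged controls and was at 94.19, 64.21 and 74.10 FPKM in the labelled knockouts. It fell with age (log2 fold change -0.98, adjusted p = 0.0362, called in 3 of the 9 fits without 1 library) and rose in the labelled knockouts against the aged controls (1.2, adjusted p = 0.00971, called in all 9). Hs3st1, which makes the antithrombin-binding form of heparan sulfate, fell with age from 43.9 ± 7.98 to 29.2 ± 1.35 FPKM (adjusted p = 0.0458, called in 2 of the 9), and stood at 40.5 ± 3.38 FPKM in the labelled knockouts (adjusted p = 0.0737 against aged). Cd59a, a complement inhibitor placed on this list, fell in the labelled knockouts from 32.5 ± 6.72 to 18.1 ± 2.68 FPKM (adjusted p = 0.0187, called in 8 of the 9). Anxa5, which binds phosphatidylserine, and Ptgs1, a prostacyclin and thromboxane pathway enzyme, were the most abundant of the list, at 229.8 ± 4.17, 279 ± 42.8 and 236 ± 15.9 FPKM and at 58.3 ± 4.82, 68.1 ± 2.96 and 59.5 ± 3.07 FPKM in the 3 groups, and were called in no comparison, and Serpina10, Proc and Adamts13 were below 0.1 FPKM in every library. The list's median was -0.03 with age and 0.05 in the labelled knockouts.

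None of 6 tested genes of the plasminogen system beyond Plat and Plaur, out of 12 listed, and neither of 2 tested thrombin receptors, out of 4, was called in any comparison. Anxa2 and S100a10, which together bind the Plat product and plasminogen at the endothelial surface, were the most abundant of the former. Anxa2 stood at 119 ± 5.93, 119 ± 9.37 and 120.2 ± 17.2 FPKM and S100a10 at 47.3 ± 2.41, 38.6 ± 4.0 and 46.9 ± 10.7 FPKM. The main thrombin receptor F2r was at 129 ± 15.7, 120.2 ± 18.3 and 150.0 ± 1.85 FPKM, higher in all labelled knockouts than in all controls (adjusted p = 0.15 against aged), and F2rl3 was at 4.01 ± 0.170, 3.06 ± 1.44 and 2.82 ± 1.31 FPKM. The medians of the plasminogen list were -0.19 with age and -0.05 in the labelled knockouts, and those of the receptors -0.24 and 0.12.

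Of 19 genes for the cargo and release of Weibel-Palade bodies, the store of von Willebrand factor, 16 were tested. With age 2 rose and 1 fell, and in the labelled knockouts against the aged controls none rose and 2 fell. Cd63, a membrane protein of the mature granule, was at 89.0 ± 0.948, 159 ± 24.5 and 96.6 ± 25.9 FPKM in the 3 groups (adjusted p = 0.0381 with age and 0.0402 in the labelled knockouts, held in 2 and 1 of the 9 fits without 1 library). Rab3b, a small GTPase linked to granule release, was at 1.17 ± 0.325, 3.46 ± 0.393 and 1.21 ± 0.307 FPKM (adjusted p = 0.0191 and 0.00911, held in 6 and 9 of those fits). Mmrn1, a multimerin stored with platelet and endothelial cargo, fell with age from 70.3 ± 7.28 to 35.1 ± 3.87 FPKM (adjusted p = 0.0347, held in 3 of the 9). The granule cargoes Igfbp7 (1689 ± 38.0, 1567 ± 244 and 1565 ± 145 FPKM) and Selp, P-selectin (176 ± 9.81, 165 ± 34.0 and 163 ± 21.5 FPKM), were the most abundant and were not called. Vwf was at 1.13 FPKM on average in libraries whose Selp was above 126 FPKM. The list's medians were -0.12 with age and 0.04 in the labelled knockouts.

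**Figure D4:**
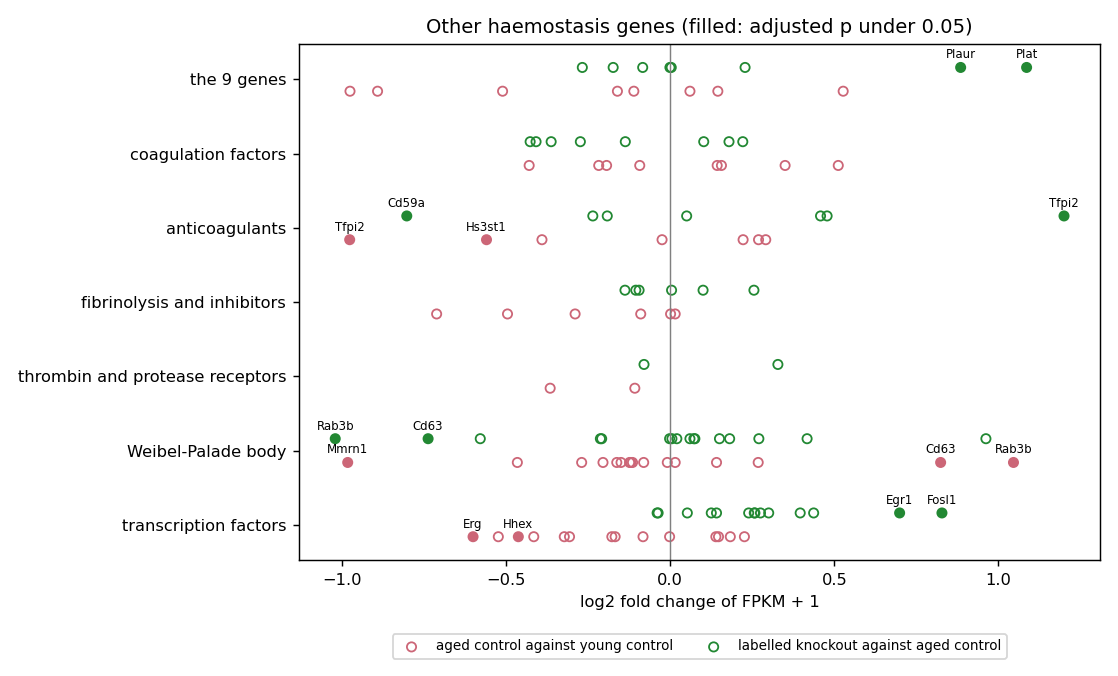
Log2 fold change of FPKM + 1 (horizontal axis) of every tested gene in the 9-gene set and in 6 related lists (rows), for the aged against the young controls and for the labelled knockouts against the aged controls. Filled, named points have an adjusted p under 0.05; Tfpi2, Cd63 and Rab3b are called in both comparisons, with opposite signs, and the comparisons share the aged controls.

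The labelled knockouts differed from the young controls in age and labelled genotype together. No member passed the test in that comparison, against 0.212% of all tested genes, and limma voom called none. At an unadjusted p under 0.05 there were 2 members, Vwf (log2 fold change 0.53) and F8 (-0.75), against 9.27% of all genes. Of the 8 tested members the groups did not overlap for 3, Vwf, Thbd and Tfpi, against 22.4% of all genes, and in the labelled knockouts against the aged controls for 2 members, Plat and Plaur, against 23.2%. Plat and Plaur stood 1.22 and 1.32 times above their young means (adjusted p = 0.827 and 0.544), with 95% intervals of 0.807- to 1.62-fold and 0.997- to 1.68-fold. The members' median log2 fold change was -0.07, beside -0.03 for all genes.

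The genes whose pattern over the 9 libraries was nearest to each member were sought among 6939 genes averaging 5 FPKM or more, by the mean absolute difference of log2(FPKM + 1) values centred on each gene's mean. The nearest to Plaur was Noct (nocturnin), at 0.07 log2 units, and the nearest to Plat was Cav1, the main coat protein of caveolae, at 0.118, level with the kinase gene Sgk1 at 0.118. Noct stood at 7.98 ± 0.489, 5.54 ± 0.605 and 10.7 ± 1.70 FPKM and Cav1 at 51.3 ± 7.27, 28.9 ± 3.60 and 64.5 ± 29.7 FPKM in the 3 groups. The nearest to F8 was the protein kinase gene Rock2, at 0.09, with 10.99, 2.92 and 5.78 FPKM in the labelled knockouts, the same order as F8. For scale, Plaur, Plat and F8 themselves departed from their means by 0.33, 0.44 and 0.53 log2 units on average. The nearest to Vwf was Rhoj (0.138, with Slc9a3r1 at 0.139), to Thbd Reep1 (0.06), to Procr Tpt1-ps3 (0.05), to Tfpi Mageh1 (0.06), to Pros1 Desi2 (0.04) and to F3 Cbwd1 (0.06). Thbd and Procr themselves departed from their means by only 0.12 log2 units each, Vwf by 0.29, Tfpi by 0.205, F3 by 0.204 and Pros1 by 0.085. With a pseudocount of 0.1 the nearest to F3 was Irf1, at 0.515, where F3 itself departed by 0.861. Likeness here is a description over 9 libraries, without a test. Tpt1-ps3 is a pseudogene whose reads can be shared with its parent gene, so its values are uncertain.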

How the data were processed

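RNA from sorted marrow endothelial cells was sequenced from SMART-Seq v4 cDNA, per the labels' protocols. The authors deposited FPKM values, rounded to 2 decimals, for 52183 genes in 9 libraries. The submitters' processing notes list STAR, edgeR and FastQC 0.11.5, and the builds mm10 and GRCm38, without their roles. Counting rule, strand setting and annotation are not stated in these sources, and such cDNA carries no strand, so reads of overlapping genes cannot be told apart. No exon of a member overlaps another gene's exon in GENCODE M21 (GRCm38), to which all 52183 identifiers matched. Depth was recovered because low values of genes of 60 to 400 bases are whole multiples of 1 fragment, within 0.1, for 99.5% to 99.8% of them.

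Values were tested as log2(FPKM + 1) with limma 3.58.1 (R 4.3.3), in 1 fit of 9 libraries with a mean per group, 6 residual degrees of freedom and a trended eBayes, over 11796 genes averaging 1 FPKM or more. P-values were adjusted by Benjamini-Hochberg over all of them, with a threshold of 0.05. This scale understates changes of low genes. Ratios within libraries used an exact permutation test; 1 ratio and 1 gene of the lists are not reported here. The procedure was tested on simulated data. The members and lists were chosen with earlier results of these data known. By rule the text names all members, haemostasis list genes called in any comparison, the 2 most abundant genes of each list described and the nearest genes; Plau, Klf2, Klf4 and F5 and other cell type markers, Sgk1 and Slc9a3r1 were also named, and the length check added, after their values were seen. Alternatives were other pseudocounts, filters and scalings, fits of 2 groups, a replicate block, array weights, limma voom on recovered fragments and leaving out each library. Python 3.11.15 and matplotlib 3.10.9 drew the figures.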

Additional observations from a re-analysis of the deposited data

How the results depend on the processing

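No member changed direction while called in any alternative. Of 158 member values per comparison under the alternatives, 146, 144 and 156 kept their side of the threshold in the aged against young, labelled knockout against aged and labelled knockout against young comparisons. With age, members called went from 0 to 2 (F8 and Plat) in the fit of those groups alone, to 1 (Plat) with limma voom on recovered fragments and to 5 with array weights, and ranged from 0 to 2 when 1 library was left out. In the labelled knockouts against the aged controls the 2 calls became 0 with no filter and 0 in the fit of those groups alone, and 1 with a mean of at least 5 FPKM, where Plat was no longer tested, and 3 with array weights (Thbd added); they ranged from 0 to 2 when 1 library was left out. Against the young controls array weights gave 2 calls (Vwf and Tfpi) in place of 0, and every fit without 1 library gave 0. The cause of these shifts was not tested.

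All genes called numbered 471, 565 and 25 in the 3 comparisons. They were 5 to 1039, 197 to 1159 and 11 to 31 without 1 library, 39, 146 and 15 with no filter, 716, 149 and 31 in fits of 2 groups, and 2320, 1854 and 621 with array weights. With the length trend removed 299 were called with age, and with a mean of at least 5 FPKM 12 against the young controls. With the replicate number as a block there were 183, 400 and 23, and the members called were 1 (Plat, with age), 2 and 0. The labels state no pairing by these numbers. Of 9 same-numbered pairs, 1 had deviations correlated above 0.1, and the correlations ran from -0.129 to 0.124. Libraries correlated best with their own number in 7 of 18 cases. Deviations from means of 3 libraries cannot show that a shared batch is absent, so a pairing is not excluded. The difference of the Vwf to F8 ratio with age was 2.12 log2 units, and 1.503 with a pseudocount of 1. With a pseudocount of 0.1 other genes were nearest to Vwf, Thbd and F3. F3 rests on 0 to 52 fragments per library.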
